A study of Homo sapiens with 48 samples.

Results

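Mesendoderm is the precursor layer of mesoderm and definitive endoderm, and 8 genes that mark it or its first derivatives were followed through all 24 groups of a study of human embryonic stem cells. The genes were TBXT, MIXL1, EOMES, GSC, SOX17, FOXA2, MESP1 and TBX6, found by their symbols among 19253 genes in the deposited table, and all 8 had a row. The 48 RNA libraries came from H9, a wild-type human embryonic stem cell line, with 2 in each group. The cells grew as a monolayer in E6, a defined medium without the FGF and TGF-beta factors that hold stem cells undifferentiated. On day 8 there were 6 groups given a compound with S9 (ACE_S9, CYC_S9, IMI_S9, TDCIPP_S9, TEP_S9 and TPHP_S9), 1 group given solvent with S9 (DMSO_S9), 15 groups given a compound alone (TBHQ, DTBP, DG, BHT_COOH, BHT_CHO, BHT, BHA, AO_2246, AO168_O, ACE, CYC, IMI, TDCIPP, TEP and TPHP) and 1 group given the solvent DMSO. The group D0, which the file headers call day 0, had no treatment. The labels name the compound families NEO, OPE and SPA without assigning the compounds. By assumption from the abbreviations, ACE, CYC and IMI were taken as NEO, TDCIPP, TEP and TPHP as OPE, and the other 9 as SPA. The labels state no dose, so no test set single compounds against each other and an order of compounds is a description, and they do not spell out S9, a term used in toxicology for liver extracts with metabolic enzymes.

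In the embryo the primitive streak forms where WNT and NODAL signals are strong, and T-box and homeobox factors such as TBXT, EOMES and MIXL1 are switched on in the cells that leave the epiblast. Cells with high NODAL signalling go on to express GSC, FOXA2 and SOX17 on the way to axial mesendoderm and endoderm, and cells with more WNT and less NODAL signalling pass through MESP1 and TBX6 towards mesoderm. In cultures directed or left to become ectoderm these genes are therefore commonly read as a sign of cells on another path. Several are also expressed elsewhere: FOXA2 in floor plate, EOMES in trophoblast and forebrain, TBXT in posterior axial progenitors, and GSC in head structures.

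Promoter windows (250 bases before to 50 bases after a gene start, RefSeq, GRCh38.p14) were read for only 5 of the 8 genes. This does not mean that every other gene lacks a window. The windows are shown for the 4 genes whose counts carried the comparisons below. Matches to 5 motifs were searched in this reference sequence on both strands. MIXL1 lies on chromosome 1 (chr1:226223414-226223713, plus strand), EOMES on chromosome 3 (chr3:27722274-27722573, minus strand), GSC on chromosome 14 (chr14:94770064-94770363, minus strand) and TBX6 on chromosome 16 (chr16:30091875-30092174, minus strand). Capitals mark motif matches.
MIXL1: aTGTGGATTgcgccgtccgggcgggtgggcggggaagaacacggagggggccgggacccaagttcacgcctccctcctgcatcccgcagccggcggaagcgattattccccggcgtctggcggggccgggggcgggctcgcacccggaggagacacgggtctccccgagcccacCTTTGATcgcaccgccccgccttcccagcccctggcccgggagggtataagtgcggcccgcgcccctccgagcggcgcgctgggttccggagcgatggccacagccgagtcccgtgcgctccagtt
EOMES: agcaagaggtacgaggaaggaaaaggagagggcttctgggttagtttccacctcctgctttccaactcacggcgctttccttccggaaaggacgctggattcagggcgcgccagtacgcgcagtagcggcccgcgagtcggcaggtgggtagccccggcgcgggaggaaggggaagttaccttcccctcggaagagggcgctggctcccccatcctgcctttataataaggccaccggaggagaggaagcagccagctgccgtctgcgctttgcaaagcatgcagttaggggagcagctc
GSC: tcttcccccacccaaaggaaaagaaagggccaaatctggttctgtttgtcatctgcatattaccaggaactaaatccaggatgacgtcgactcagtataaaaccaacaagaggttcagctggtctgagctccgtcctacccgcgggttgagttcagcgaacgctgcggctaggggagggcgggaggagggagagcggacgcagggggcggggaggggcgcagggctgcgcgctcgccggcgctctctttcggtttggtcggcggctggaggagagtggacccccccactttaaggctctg
TBX6: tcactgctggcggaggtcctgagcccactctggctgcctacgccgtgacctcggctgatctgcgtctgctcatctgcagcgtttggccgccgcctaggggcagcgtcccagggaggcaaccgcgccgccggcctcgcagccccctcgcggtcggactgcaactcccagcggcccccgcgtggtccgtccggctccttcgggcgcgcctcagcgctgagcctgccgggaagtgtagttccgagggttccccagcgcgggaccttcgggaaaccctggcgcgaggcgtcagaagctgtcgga
The MIXL1 window held the FOXH1 letters TGTGGATT, 249 bases before the start, and the TCF/LEF letters CTTTGAT, 76 bases before it. FOXH1 carries NODAL signals to DNA and TCF/LEF factors carry WNT signals. Among 35116 promoter windows of that length, 0.817% held the first and 2.62% the second. The T-box letters AGGTGTGA (in 0.980% of windows), the GSC homeodomain letters TAATCC (6.36%) and the GATA letters AGATAA (10.3%) were in none of these 4 windows nor in those of TBXT. The MIXL1, GSC and TBX6 windows start at the gene start of the RefSeq gene table, while the EOMES window is set on a start site 390 bases inside the gene. A match is a string of letters and no measured site.

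Library totals ran from 17918844 to 20096084 counts. A count below is the deposited expected count of reads, rounded to a whole number, and TPM (a length-scaled transcript level, deposited by the authors) is used where genes are compared with each other. Where a group had 0 counts in both libraries, the limit was set at 3 counts over the group, which covers counting error only. MIXL1 was the one member whose deposited counts had a decimal part in 48 of 48 libraries, as a tool gives that divides reads between loci, and its values are uncertain by that much. The libraries are bulk RNA, so fewer cells that express a gene and less RNA per cell cannot be told apart. Nothing in the labels says that the 2 libraries of a group came from separate cultures, and the p-values measure the spread between libraries, which may be technical.

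The 8 genes spanned a wide range of levels on day 8, and only TBX6 was above the median gene of the table. TBX6, the T-box factor of presomitic mesoderm, averaged 20.2 ± 2.55 TPM over the 46 day 8 libraries (SD), against a median gene of 8.40 TPM. GSC, a homeobox factor of the organizer and anterior mesendoderm, followed with 7.46 ± 4.25 TPM, and MIXL1, a homeobox factor of the primitive streak, with 1.44 ± 0.980 TPM. The other 5 were all below 1 TPM on average. MESP1, the bHLH factor of nascent and cardiac mesoderm, averaged 0.593 ± 0.302 TPM, and TBXT, the T-box factor called Brachyury, averaged 0.286 ± 0.157 TPM. EOMES, a T-box factor needed for definitive endoderm, averaged 0.173 ± 0.136 TPM. FOXA2 and SOX17, the pioneer and HMG-box factors of definitive endoderm, stood at 0.0154 ± 0.0235 and 0.0063 ± 0.0165 TPM. On D0 the order was different: MIXL1 led with 2.69 ± 0.226 TPM (n = 2), followed by TBX6 with 2.13 ± 0.0636 TPM and FOXA2 with 0.855 ± 0.0636 TPM.

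SOX17 was at the limit of detection throughout. It had 0 counts in 40 of 46 day 8 libraries and 1 count in each of the other 6, and the D0 libraries had 0 and 1. FOXA2 had 0 counts in 31 of 46 day 8 libraries and never more than 2, against 20 and 22 counts in the D0 libraries. The other low genes were present in most day 8 libraries but rarely reached 10 counts: TBXT in 10 of 46 libraries, MESP1 in 10 and EOMES in 7. SOX17 failed the filter on low counts in every fit, and FOXA2 passed it only in the fit that held D0, where it is high. FOXA2 had to differ there, so it is described by its counts with no test, and the tests against D0 and within day 8 cover the other 6 genes. All 7 libraries with 10 or more EOMES counts were in the 6 NEO and OPE groups without S9. EOMES passed the filter only through them, so its calls of those groups as higher are not independent of the filter.

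**Figure D1:**
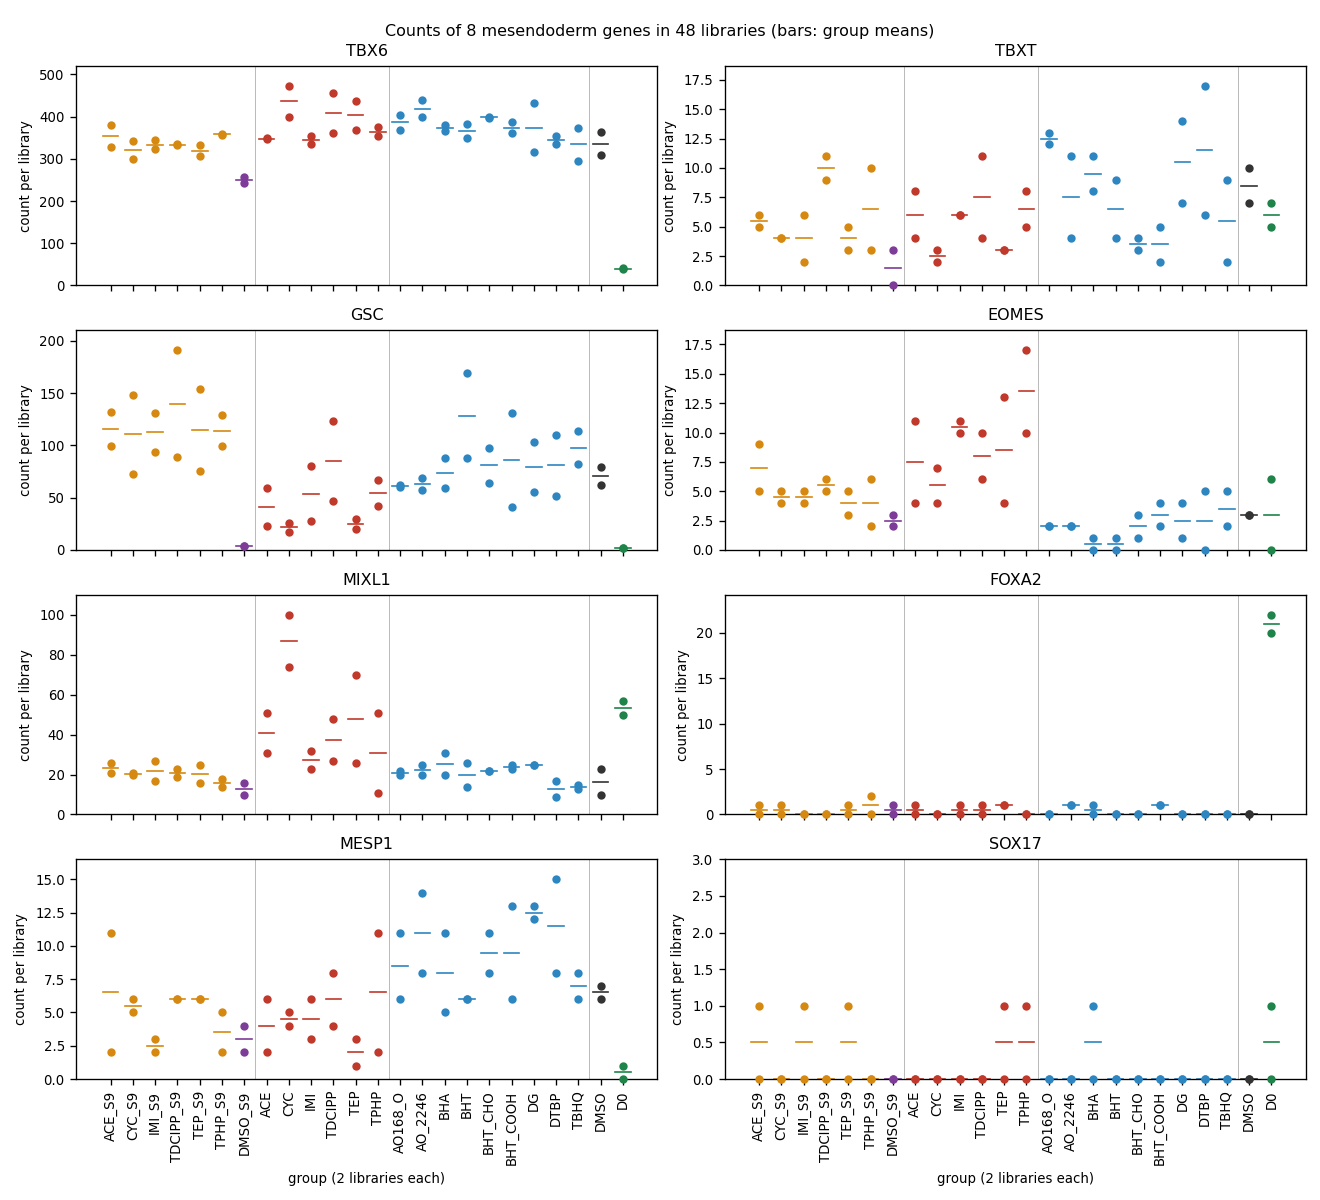
Counts of the 8 genes (y axis, count per library) in each of 48 libraries (points) by group (x axis), with a bar at each group mean; colours separate compounds with S9 (orange), DMSO_S9 (purple), the 6 NEO and OPE groups (red), the 9 SPA groups (blue), DMSO (black) and D0 (green). TBX6 is at 243 to 473 counts in every day 8 library and 42 and 38 on D0, GSC is at 4 in both DMSO_S9 libraries, MIXL1 is highest in CYC (100 and 74), and FOXA2 is above 2 counts on D0 only.

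The first comparison asked what 8 days with solvent did to the genes. Relative to D0, DMSO libraries had higher TBX6, GSC and MESP1, lower MIXL1, and no detected difference in TBXT or EOMES. TBX6 had 308 and 364 counts in DMSO, against 42 and 38 on D0, and GSC had 62 and 79 counts in DMSO, against 2 and 2 on D0. Every DMSO library lay above every D0 library for both genes. The log2 fold change was 2.84 for TBX6 (SE 0.18, adjusted p 1.02e-13) and 4.84 for GSC (SE 0.90, adjusted p 3.76e-05), in edgeR's quasi-likelihood test with Benjamini-Hochberg adjustment. MIXL1 went the other way, with 23 and 10 counts in DMSO, against 57 and 50 on D0 (log2 fold change -1.91, SE 0.49, edgeR adjusted p 0.00138). In all, 4 of 6 genes tested were called, FOXA2 left out, in a comparison that called 58.2% of all genes.

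The remaining call, MESP1, rests on counts near 0, as do the values of FOXA2. FOXA2 had 0 and 0 counts in DMSO, against 20 and 22 on D0, which makes it at least 14.1-fold lower in DMSO by the limit of 3 counts over the group. MESP1 had 6 and 7 counts in DMSO, against 1 and 0 on D0, a ratio of 12.9 with a 95% counting interval of 1.94 to 549.8 (edgeR adjusted p 0.0142). MESP1 fell short of the threshold in DESeq2 (adjusted p 0.0578) and without D0 replicate 2 (log2 fold change 2.39, edgeR adjusted p 0.113). TBXT had 10 and 7 counts in DMSO, against 5 and 7 on D0 (log2 fold change 0.27, 95% interval -1.14 to 1.69), and EOMES had 3 and 3, against 6 and 0 (-0.21, -2.22 to 1.80). Both intervals span more than a 2-fold difference each way. In the authors' deposited table, MIXL1, GSC, TBX6 and FOXA2 had a q-value under 0.05 in this comparison, with log2 fold changes of -1.91 for MIXL1, 4.91 for GSC and 2.84 for TBX6.

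The other 22 day 8 groups, all set against the same 2 D0 libraries, gave 78 calls in 132 pairs of gene and group, FOXA2 left out, with 60 higher and 18 lower, where 59.7% of all pairs of gene and group were called. The share of all genes called was 59.9% in ACE_S9, 58.8% in CYC_S9, 59.2% in IMI_S9, 59.4% in TDCIPP_S9, 59.2% in TEP_S9, 58.9% in TPHP_S9 and 70.2% in DMSO_S9. Without S9 it was 61.3% in TPHP, 61.6% in TEP, 60.8% in TDCIPP, 60.6% in IMI, 64.6% in CYC and 62.3% in ACE. In the SPA groups it was 56.9% in AO168_O, 56.6% in AO_2246, 58.8% in BHA, 56.3% in BHT, 56.3% in BHT_CHO, 57.6% in BHT_COOH, 59.5% in DG, 56.8% in DTBP and 57.3% in TBHQ. TBX6 was higher than D0 in 22 of 22 groups, by 2.40 to 3.21 on the log2 scale. GSC was higher in 21 of 22, the exception being DMSO_S9, where it had 4 and 4 counts (log2 fold change 0.73, edgeR adjusted p 0.657). MESP1 was higher in 16 of 22 groups, a count that fell to 5 without D0 replicate 2 and was 8 in DESeq2. MIXL1 was lower in 17 of 22 groups and higher in none, and the count was 11 without D0 replicate 1. Summed over the 46 day 8 libraries FOXA2 had 16 counts, against 42 counts in the 2 D0 libraries, which is 59.3-fold lower per read. This is a description, since FOXA2 passed the filter only through D0. EOMES was called higher in TPHP alone and TBXT lower in DMSO_S9 alone, and DESeq2 called each in 0 of 22 groups (adjusted p 0.0817 for EOMES in TPHP and 0.0678 for TBXT in DMSO_S9). EOMES had 6 and 0 counts on D0, and it was called in 10 groups without D0 replicate 1, in 2 without D0 replicate 2 and in 0 without TPHP replicate 1. TBXT lost its call without either D0 library and without DMSO_S9 replicate 2.

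Lists of other genes of the same pathways were read in the same comparison, which called 58.2% of all genes. Among 24 tested genes of the primitive streak list, 9 were higher and 7 lower in DMSO than on D0. The lower ones included NODAL, the ligand of the pathway, with 0.894 ± 0.326 CPM in DMSO and 76.4 ± 8.97 CPM on D0 (CPM, counts scaled for library depth; SD, n = 2 each), and LEFTY1 and LEFTY2, its inhibitors (log2 fold changes -9.01, SE 0.65, and -7.27, SE 0.59). The higher ones included the WNT pathway genes SP5 and LEF1 (3.36, SE 0.90, and 2.37, SE 0.43) and the ligand gene BMP4 (1.51, SE 0.33). In the nascent and paraxial mesoderm list 7 of 13 genes were higher and 0 lower. They included DLL1, a NOTCH ligand (4.06, SE 0.37), HES7, a segmentation clock factor (4.68, SE 0.87), LFNG (1.17, SE 0.19) and FOXC1 (5.22, SE 1.01). DLL1, LFNG and FOXC1 are also expressed outside mesoderm. MSGN1, a factor specific to presomitic mesoderm, had 0 to 3 counts in every day 8 library. In the endoderm list 5 of 17 genes were higher, led by SHISA2 (4.64, SE 0.46) and HHEX (3.34, SE 0.71), and 3 were lower. In the lateral and cardiac list 2 of 13 were higher and 3 lower, with KDR at -1.44 (SE 0.30). In the same libraries 15 of 21 neural ectoderm genes were higher and 1 lower, and the summed level of that list was 1704 to 2652 TPM in DMSO and 158 to 170 TPM on D0. The part of other cell types in the member genes' levels was not tested.

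TBX6 and MESP1 have close neighbours in the genome, and whether the libraries kept strand is not stated. TBX6 lies 390 bases from YPEL3, which had 540 and 786 counts in DMSO and 304 and 415 on D0, and 417 bases from PPP4C, which had 2470 and 2222 counts in DMSO and 3139 and 3221 on D0. MESP1 overlaps WDR93, which had 10 and 13 counts in DMSO and 7 and 2 on D0. Reads from such overlaps cannot be assigned to 1 gene without strand, and their share was not tested.

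The second question was whether any compound moved the genes away from solvent. Of 90 pairs of gene and compound, all against the same 2 DMSO libraries, 4 were called, where 6.89% of all pairs of gene and compound were called. All 4 were among the 6 NEO and OPE compounds, and none was in the 9 SPA compounds, where 1 pair had an unadjusted p under 0.05. DESeq2 gave an adjusted p for 18 of the 54 SPA pairs and called 0. The share of all genes called was 0% in AO168_O, 10.5% in AO_2246, 0.00621% in BHA, 4.6% in BHT, 2.15% in BHT_CHO, 0.00621% in BHT_COOH, 5.49% in DG, 3.07% in DTBP and 0.161% in TBHQ. It was 8.55% in ACE, 6.21% in IMI and 9.06% in TDCIPP, which also gave 0 calls among members. CYC gave 2 of the 4 calls. MIXL1 had 100 and 74 counts in CYC, against 23 and 10 in DMSO (log2 fold change 2.37, SE 0.49, edgeR adjusted p 0.000722), in a comparison that called 29.6% of all genes. Both CYC libraries were above all other day 8 libraries in MIXL1 and above both D0 libraries, which had 57 and 50. GSC had 26 and 17 counts in CYC, against 62 and 79 in DMSO (log2 fold change -1.72, SE 0.62, edgeR adjusted p 0.0361). That call was lost without any 1 of the 4 libraries, with log2 fold changes of -2.04 and -1.47 without CYC replicates 1 and 2, and -1.89 and -1.54 without DMSO replicates 1 and 2. The authors' deposited table also had q-values under 0.05 for MIXL1 and GSC in CYC against DMSO, and for no other member in the 10 compounds whose q-values were used; those of IMI, TBHQ, TDCIPP, TEP and TPHP were not analysed here.

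The other 2 calls were close to the threshold. MIXL1 had 70 and 26 counts in TEP, against 23 and 10 in DMSO (log2 fold change 1.54, SE 0.50, edgeR adjusted p 0.0425), in a comparison that called 12.7% of all genes. The TEP libraries were far apart, with replicate 2 close to DMSO replicate 1, and the call was lost without TEP replicate 1 (0.68), DMSO replicate 1 (2.25) or DMSO replicate 2 (1.06), and in a fit of the groups compared alone (1.53, adjusted p 0.177). EOMES had 17 and 10 counts in TPHP, against 3 and 3 in DMSO (log2 fold change 2.15, SE 0.70, edgeR adjusted p 0.0454), in a comparison that called 11.3% of all genes. That call was lost without a filter on low counts (adjusted p 0.0646), in a fit of the groups compared alone (0.140) and when TPHP replicate 1, either DMSO library or any 1 of 18 libraries of other groups was left out, with log2 fold changes of 1.75 to 2.15. TBXT, MESP1 and TBX6 were called in 0 of 15 compounds by edgeR, and in 0 by DESeq2, which gave an adjusted p in 4, 4 and 14 of them. In edgeR 1, 0 and 3 of their 15 comparisons had an unadjusted p under 0.05. TBX6 differed from DMSO by 0.01 to 0.38 on the log2 scale in the 15 compounds.

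The labels give no doses, so the 6 NEO and OPE exposures and the 9 SPA exposures were also averaged as groups. They give no culture batches either, so a batch shared by a set could not be told apart from its compounds. Against DMSO, the mean of the 6 had higher MIXL1, with 11 to 100 counts (median 40.0) in the 12 libraries, against 23 and 10 in DMSO (log2 fold change 1.34, SE 0.42, edgeR adjusted p 0.0188). This was 1 call in 6 genes tested, where 25.6% of all genes were called, and 2 of the 12 libraries lay within the DMSO range, TPHP replicate 2 with 11 and IMI replicate 1 with 23. The call was lost without DMSO replicate 2 (log2 fold change 0.87, adjusted p 0.260), without the CYC libraries (1.14, adjusted p 0.0596, chosen after seeing the data) and in a fit of these 7 groups alone (1.34, adjusted p 0.113). EOMES had 4 to 17 counts (median 10) in the 6, against 3 and 3 in DMSO, and its difference of 1.48 (95% interval 0.22 to 2.74) had an adjusted p of 0.0759. GSC (-0.74), TBXT (-0.78), MESP1 (-0.57) and TBX6 (0.19) did not pass, with intervals that all included 0. Against DMSO, the mean of the 9 SPA exposures gave 0 calls in edgeR among 6 genes tested, none with an unadjusted p under 0.05, where 6.71% of all genes were called. DESeq2 gave an adjusted p for TBX6 alone (0.278).

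The 2 sets of exposures differed from each other in 4 of 6 genes tested, where 66.5% of all genes were called. This contrast uses no DMSO library, and here too a batch shared by a set could not be told apart from its compounds. EOMES was higher in the 6 NEO and OPE groups, with 4 to 17 counts (median 10) in 12 libraries, against 0 to 5 (median 2.0) in 18 SPA libraries (log2 fold change 2.18, SE 0.31, edgeR adjusted p 6.23e-07). The ranges meet only at 4 and 5 counts. EOMES passed the low-count filter only through libraries of these 6 groups. Without that filter its difference was 2.19 (edgeR adjusted p 7.26e-07). MIXL1 was higher too, with 11 to 100 counts (median 40.0) against 9 to 31 (median 22) in the SPA groups (1.01, SE 0.18, adjusted p 2.10e-05). GSC was lower, with 17 to 123 counts (median 36.0) against 41 to 169 (median 75.5) in the SPA groups (-0.98, SE 0.22, adjusted p 0.000273). MESP1 was also lower, with 1 to 11 counts (median 4.0) against 5 to 15 (median 8.0) in the SPA groups (-1.08, SE 0.27, adjusted p 0.000783). TBXT had 2 to 11 counts against 2 to 17 in the SPA groups (-0.57, adjusted p 0.0828), and was called without TBHQ replicate 1 (-0.64) or TDCIPP replicate 2 (-0.72). TBX6 had 336 to 473 counts against 295 to 439 in the SPA groups, and its difference of 0.00 had a 95% interval of -0.11 to 0.11. The 4 calls held without the CYC libraries and without each single library.

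**Figure D2:**
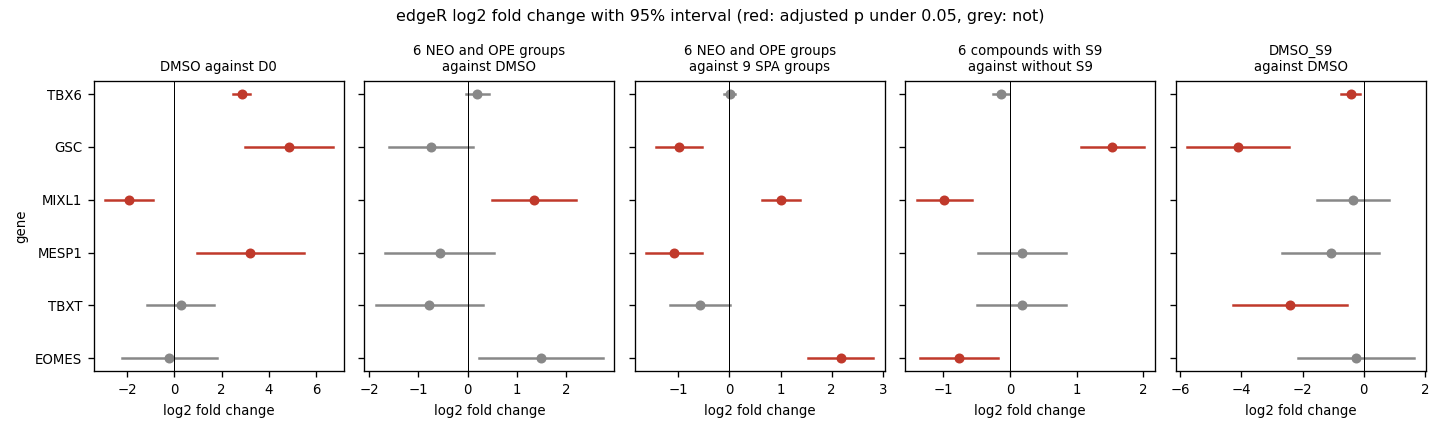
Log2 fold changes (x axis, points) with 95% intervals (lines) of 6 genes (y axis) in 5 comparisons, from the edgeR fits; red marks an adjusted p under 0.05 and grey a larger one, and x axes differ between panels. GSC is at -0.98 and MIXL1 at 1.01 in the 6 NEO and OPE groups against the 9 SPA groups, and at 1.53 and -0.98 in the 6 compounds with S9 against those without. FOXA2 and SOX17 are not drawn because their counts were at or near 0.

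Other lineage genes also differed from DMSO in the 6 NEO and OPE exposures. In the lateral and cardiac list, 5 of 13 genes were higher and 4 lower than in DMSO, where 25.6% of all genes were called. HAND1 had 48.03 ± 42.96 CPM in the 6 groups and 0.332 ± 0.181 CPM in DMSO (log2 fold change 6.92, SE 1.31), ISL1 66.1 ± 40.1 and 1.05 ± 0.832 CPM (5.88, SE 1.05) and NKX2-5 19.3 ± 13.03 and 0.409 ± 0.00059 CPM (5.48, SE 1.04). HAND1 and ISL1 are also amnion genes and stand in that list as well. Also lower was KDR, the receptor of vascular mesoderm (-1.73, SE 0.21). In the primitive streak list 2 of 21 genes were higher and 4 lower, among them BMP4 (1.76, SE 0.28) and FGF8 (-2.76, SE 0.58). In the endoderm list 4 of 15 were higher, among them GATA6 (3.63, SE 0.65) and PRDM1 (1.85, SE 0.32), both of which other tissues express. In the paraxial list 3 of 13 were higher, among them FOXC1 (2.58, SE 0.50), and 3 lower, among them RSPO3 (-2.86, SE 0.59). In the same comparison 15 of 20 surface and placode ectoderm genes were higher and 0 lower, 7 of 18 amnion and trophoblast genes were higher and 1 lower, and 12 of 21 neural ectoderm genes were lower and 1 higher. The summed amnion and trophoblast list stood at 199 to 896 TPM in the 6 groups and 95.3 to 96.0 TPM in DMSO, and its part in the EOMES and MIXL1 differences was not tested.

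Within each group, the library with more MIXL1 also had more HAND1, more GATA3 and more KRT7 in 6 of 6 groups. It had less GSC and less SIX3, a forebrain factor, in 5 of 6 groups, the exception being CYC for both. In TPHP, for example, replicate 1 had 51 MIXL1, 42 GSC, 2012 HAND1 and 821 SIX3 counts, and replicate 2 had 11, 67, 168 and 2604. EOMES followed MIXL1 in 4 of 6 groups. This pattern was seen in the data and not tested. HAND1, GATA3, KRT7 and SIX3 were chosen without the rule used for named list genes. KRT7 was also the gene most like MIXL1 over the day 8 group means. The share of all genes that followed or opposed MIXL1 in this way was not counted, so whether the pattern is particular to these genes is not known.

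**Figure D3:**
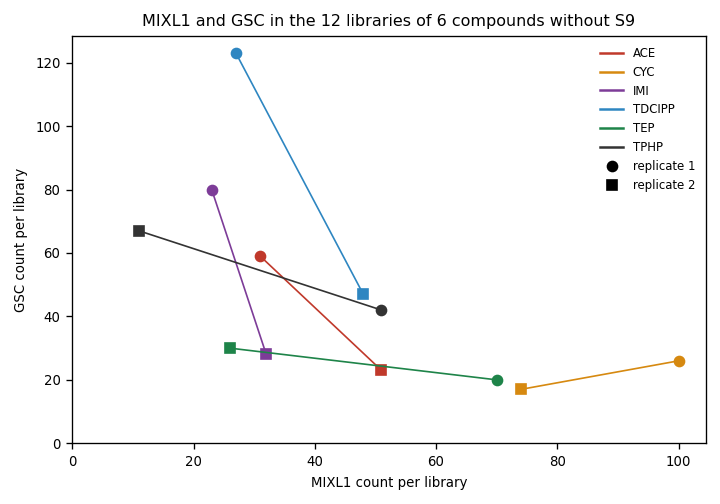
GSC count (y axis) against MIXL1 count (x axis) in the 12 libraries of the 6 NEO and OPE compounds without S9; a line joins the 2 libraries of a group, circles are replicate 1 and squares replicate 2. In 5 of 6 groups the library with more MIXL1 has less GSC, and both CYC libraries lie at the far right, at 100 and 74 MIXL1 counts with 26 and 17 GSC counts.

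The third question was what S9 did to the genes. Averaged over 7 treatments, with treatment as a term in the fit of 28 libraries, cultures with S9 had less MIXL1, EOMES and TBX6, 3 of 6 genes tested where 28.2% of all genes were called. MIXL1 was lower by a log2 fold change of -0.92 (SE 0.22, edgeR adjusted p 0.00357), EOMES by -0.73 (SE 0.24, adjusted p 0.0234) and TBX6 by -0.18 (SE 0.06, adjusted p 0.0293). EOMES passed the low-count filter only through libraries without S9. The EOMES call was lost without TEP replicate 1 (-0.62) or TPHP replicate 1 (-0.63). The TBX6 call was lost without the DMSO and DMSO_S9 libraries (-0.14) and without CYC replicate 2, CYC_S9 replicate 1, TDCIPP replicate 2, TEP replicate 1 or TEP_S9 replicate 2 (-0.16 to -0.17). GSC had a difference of 1.02 (SE 0.40) that did not pass (adjusted p 0.0573). It passed in DESeq2 (1.05, adjusted p 0.0380), without the DMSO and DMSO_S9 libraries (1.46, adjusted p 3.86e-05), and without any 1 of the 4 DMSO and DMSO_S9 libraries or TDCIPP replicate 1 (1.06 to 1.22).

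In the 6 compounds, S9 came with more GSC and less MIXL1. GSC had 73 to 191 counts (median 114.0) in the 12 libraries with S9, against 17 to 123 (median 36.0) in the 12 without. MIXL1 had 14 to 27 counts (median 20.5) with S9, against 11 to 100 (median 40.0) without, and EOMES had 2 to 9 (median 5.0) with S9, against 4 to 17 (median 10) without. The mean over the 6 compounds with S9 minus the mean without was 1.53 for GSC (SE 0.23, edgeR adjusted p 6.42e-06), -0.98 for MIXL1 (SE 0.20, adjusted p 0.000320) and -0.76 for EOMES (SE 0.28, adjusted p 0.0320, but 0.0809 in DESeq2), where 41.3% of all genes were called. This contrast was chosen after the DMSO_S9 libraries were seen to stand apart in GSC, and EOMES passed the low-count filter only through libraries without S9. TBXT (0.18), MESP1 (0.18) and TBX6 (-0.13) did not pass.

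Taken 1 compound at a time, S9 gave few calls. CYC_S9 had 20 and 21 MIXL1 counts, against 100 and 74 in CYC (log2 fold change -2.01, SE 0.48, edgeR adjusted p 0.00424), and 148 and 73 GSC counts, against 26 and 17 in CYC (2.42, SE 0.61, adjusted p 0.00616), in a comparison that called 20.2% of all genes. The MIXL1 call was lost without CYC replicate 1 (-1.81) or CYC_S9 replicate 1 (-1.97), and the GSC call without either CYC library (2.73 and 2.15) or without CYC_S9 replicate 1 (1.83). TEP_S9 had 154 and 76 GSC counts, against 20 and 30 in TEP (2.23, SE 0.60, adjusted p 0.0478), where 1.93% of all genes were called. That call was lost when any 1 of 27 libraries was left out, TEP and TEP_S9 libraries among them (1.65 to 2.65). ACE, IMI, TDCIPP and TPHP gave 0 calls among members in edgeR and 0 in the 11 of 24 pairs with an adjusted p in DESeq2, with edgeR unadjusted p under 0.05 for 1, 1, 0 and 1 member. Among all genes edgeR called 0% with ACE, 0.0124% with IMI, 0% with TDCIPP and 0.192% with TPHP. Whether the S9 effect differs between the compounds was not tested.

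**Figure D4:**
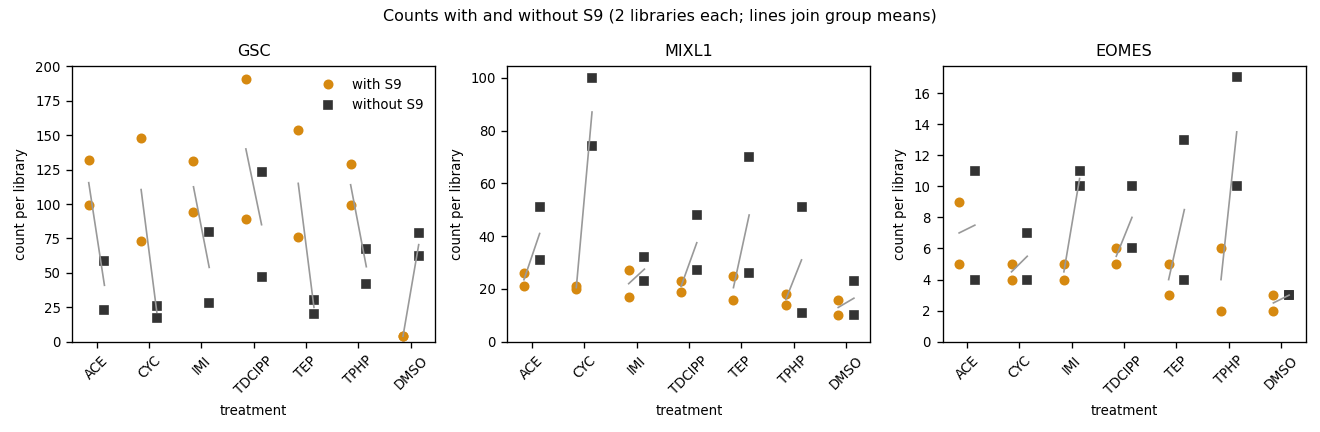
Counts of GSC, MIXL1 and EOMES (y axes, count per library) for 6 compounds and DMSO (x axis), with S9 (orange circles, left) and without S9 (black squares, right); lines join the means of 2 libraries. GSC means are higher with S9 in all 6 compounds and lower in DMSO_S9 (4 and 4) than in DMSO (62 and 79).

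DMSO_S9 was the lowest day 8 group in GSC and in TBX6, with no overlap with the next group. GSC had 4 and 4 counts in DMSO_S9, against 62 and 79 in DMSO (log2 fold change -4.10, SE 0.81, edgeR adjusted p 0.000203), TBXT had 3 and 0, against 10 and 7 (edgeR adjusted p 0.0304), and TBX6 had 256 and 243, against 308 and 364 (-0.43, SE 0.15, adjusted p 0.0168). These were 3 calls in 6 genes tested, where 45.7% of all genes were called. TBXT, with 3 counts in DMSO_S9 in all, had a ratio of 5.45-fold lower with a 95% counting interval of 1.58 to 29.0. Its call was lost in DESeq2 (adjusted p 0.0550), without DMSO replicate 1 (-2.14) and without DMSO_S9 replicate 2 (-1.44). The TBX6 call was lost without DMSO replicate 2 (-0.31) or DMSO_S9 replicate 2 (-0.37). In the authors' deposited table only GSC had a q-value under 0.05 among members in this comparison. The same libraries differed in other lineage genes: POU5F1, a pluripotency factor, had 1062 and 1112 counts in DMSO_S9, against 17050 and 10263 in DMSO, and 16 of 17 pluripotency genes were lower and 0 higher. Neural ectoderm genes summed to 4555 to 4735 TPM in DMSO_S9 and 1704 to 2652 TPM in DMSO, and the part of this in the member genes was not tested. The S9 difference in DMSO minus the mean S9 difference in the 6 compounds was -5.63 for GSC (SE 0.83, edgeR adjusted p 3.52e-06) and -2.59 for TBXT (SE 0.96, adjusted p 0.0262), where 50.9% of all genes were called in this contrast, which was added after seeing the data. The TBXT value was no longer called without DMSO replicate 1 (-2.31) or DMSO_S9 replicate 2 (-1.62).

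The 6 compounds with S9 also differed from DMSO_S9, in GSC and TBX6. Of 36 pairs of gene and compound, all against the same 2 DMSO_S9 libraries, 13 were called and all 13 were higher, where 50% of all pairs of gene and compound were called (48.5% of genes in ACE_S9, 50.4% in CYC_S9, 49.5% in IMI_S9, 50.6% in TDCIPP_S9, 50.6% in TEP_S9 and 50.4% in TPHP_S9). GSC was higher in 6 of 6, by 4.79 to 5.16 on the log2 scale, with 73 to 191 counts against 4 and 4 in DMSO_S9. TBX6 was higher in 6 of 6, by 0.42 to 0.60, with 299 to 379 counts against 256 and 243, but in 2 of 6 without DMSO_S9 replicate 2. TBXT was higher in TDCIPP_S9, which had 9 and 11 counts, against 3 and 0 in DMSO_S9, a ratio of 6.80 with a 95% counting interval of 2.02 to 35.8 (edgeR adjusted p 0.0115). The TBXT call was lost without DMSO_S9 replicate 2 (1.74) or TDCIPP_S9 replicate 2 (2.54). Without DMSO_S9 replicate 1, TBXT was called in 3 compounds, and without TPHP_S9 replicate 1 in 2. MIXL1, EOMES and MESP1 gave 0 calls in edgeR, with 0 unadjusted p under 0.05, and 0 in DESeq2.

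Placed in order of mean TPM over all 24 groups, most neighbouring groups had overlapping libraries. For TBXT, EOMES, MESP1 and SOX17 all 23 neighbouring pairs overlapped. Neighbours in such an order have the closest means, so overlap between them is common by construction. The share of overlapping pairs over all genes was not counted. Groups further apart in the order could still be separate: EOMES was at 0.41 and 0.66 TPM in TPHP, against 0 and 0.04 TPM in BHT. For GSC, 21 of 23 pairs overlapped, and the breaks were between CYC (2.09 ± 0.552 TPM), DMSO_S9 (0.395 ± 0.00707 TPM) and D0 (0.18 in both libraries), the 3 lowest groups, and the highest was TDCIPP_S9 with 13.8 ± 7.23 TPM. For TBX6, the breaks were likewise below TBHQ (17.5 ± 2.06 TPM), between DMSO_S9 (14.6 ± 0.580 TPM) and D0 (2.13 ± 0.0636 TPM). For MIXL1, CYC (4.83 ± 0.877 TPM) stood above D0 (2.69 ± 0.226 TPM), which overlapped TEP (2.64 ± 1.61 TPM), and the other break was between CYC_S9 (1.17 ± 0.0354 TPM) and BHT_CHO (1.07 ± 0.0354 TPM). For FOXA2 the single break set D0 (0.855 ± 0.0636 TPM) above the day 8 groups. The lowest MIXL1 was in DTBP (0.625 ± 0.219 TPM), which overlapped TBHQ, DMSO_S9 and DMSO just above it.

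Across the 23 day 8 group means, other genes followed some members closely. The 3 genes most like GSC were CALB1, RASAL1 and BARHL1 (Pearson r 0.96 each, log2 CPM), and BARHL1, a homeobox factor of the nervous system, had 1 and 3 counts in DMSO_S9, 49 and 44 in DMSO and 0 and 0 on D0. The 3 most like MIXL1 were KRT7, ENG and WNT4 (r 0.92, 0.91 and 0.89), and KRT7, a simple epithelial keratin, had 1867 and 1464 counts in CYC, against 157 and 193 in DMSO. EOMES was most like EML1, PSG4 and IRF2BP2 (r 0.89, 0.88 and 0.86), TBX6 like MXD3, TNFSF12 and INPP5K (0.86, 0.85 and 0.84), MESP1 like MAD2L1BP, RPLP1 and GSTZ1 (0.87 each) and TBXT like SERPINA2, TMEM229A and CYP27B1 (0.76, 0.75 and 0.72). All are descriptions over group means. Among the members themselves, r ran from -0.51 for EOMES with MESP1 to 0.59 for MIXL1 with TBX6. It was 0.56 for TBXT with MESP1, 0.53 for TBXT with GSC, 0.42 for MIXL1 with EOMES and -0.24 for MIXL1 with GSC.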

How the data were processed

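RNA of 48 libraries (24 groups of 2) was enriched with oligo-dT beads, copied with random primers and sequenced on a BGI MGI2000, per the labels' protocols. The genome build was GRCh38.p13, per the submitters' processing notes, and which aligner and counter were used is not given in the sources used here. Per the file headers, the authors deposited expected counts, TPM and FPKM per gene and library, and log2 fold changes, p-values and q-values from DESeq2 for pairs of groups, of which log2 fold changes and q-values were used for description. FPKM was not used, and TPM entered no test.

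Expected counts were rounded, which changed 43.4% of values. Genes were filtered with filterByExpr by group, scaled by TMM and tested with edgeR 4.0.16 (R 4.3.3, quasi-likelihood), with Benjamini-Hochberg adjustment over all genes of a comparison; an adjusted p under 0.05 is a call. The fits held 48 libraries (16209 genes), 46 day 8 libraries (16113 genes) or 28 libraries with treatment and S9 as terms (15982 genes). Intervals are 95%. DESeq2 1.42.0, RLE size factors, no filter, fits of the groups compared alone, a replicate block and leaving out each library were alternatives. Ratios at 1 to 3 counts have an exact counting interval.

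The members and lists were chosen with earlier results of these data known. Named list genes have an adjusted p under 0.05, a log2 fold change of at least 1 either way, non-overlapping libraries and a mean CPM of 1 or more on the higher side, ranked by p, up to 4 each way per list. For likeness, the 3 genes with the highest Pearson r of log2 CPM over 23 day 8 group means are named. On simulated counts with the sizes of CYC and DMSO (15923 genes), genes averaging 30 counts or more were recovered in 37 of 50 at 2-fold and 50 of 50 at 4-fold, and genes under 30 counts in 1 of 50 and 15 of 50. All members but GSC and TBX6 averaged under 30 counts on day 8. Library totals were 17918844 to 20096084.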

Additional observations from a re-analysis of the deposited data

Results flagged for a closer look

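The effect of S9 in DMSO minus its mean effect in the 6 compounds differed beyond error for 2 genes. For GSC the difference was -5.63 on the log2 scale (SE 0.83, edgeR adjusted p 3.52e-06): GSC had 4 and 4 counts in DMSO_S9, against 62 and 79 in DMSO, while the 12 compound libraries with S9 had 73 to 191, against 17 to 123 in the 12 without. It kept its call when each library was left out in turn (-5.80 to -5.45). For TBXT the difference was -2.59 (SE 0.96, edgeR adjusted p 0.0262), from 3 and 0 counts in DMSO_S9, and it was lost without DMSO replicate 1 (-2.31) or DMSO_S9 replicate 2 (-1.62). The test was added after seeing the data, and 50.9% of all genes were called in it. The cause was not tested.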

How the results depend on the processing

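None of the log2 fold changes checked for direction changed it under an alternative run. Checked were the calls outside the 22 groups against D0, and uncalled values above their SE in DMSO against D0 and the averaged contrasts. The others were not checked. EOMES in TBHQ against D0, near 0, had opposite signs in edgeR and DESeq2. Counts against D0 here include FOXA2, which passed the low-count filter only through D0 and had to differ. It made 22 of the 100 calls in the other 22 groups against D0. In DMSO against D0, 5 of 7 genes were called, and 3 in DESeq2. Without FOXA2 it was 4 of 6, and 3 in DESeq2. In the other 22 groups against D0 it was 78 of 132 pairs without FOXA2, and 68 in DESeq2. For 15 compounds against DMSO, 4 pairs were called, and 2 in fits of the groups compared alone, where 49 of 90 pairs were tested. For the mean of 6 against DMSO, the 1 call fell to 0 in such a fit, which tested 4 genes, and to 0 without the CYC libraries. Leaving out each library gave 4 to 5 calls for DMSO against D0, 86 to 102 for the other 22 groups against D0 (100 with all libraries), 1 to 5 for 15 compounds against DMSO, 0 to 2 for the mean of 6 against DMSO, 4 to 5 for the mean of 6 against the mean of 9, 1 to 4 for the average S9 effect (3 with all libraries), 3 to 7 for S9 within 7 treatments (6) and 8 to 15 for compounds with S9 against DMSO_S9 (13). For 15 compounds the count was 1 without DMSO replicate 1 and 2 without DMSO replicate 2 or CYC replicate 2; for the mean of 6 against DMSO it was 0 without DMSO replicate 2 and 2 without TEP replicate 2. It was 1 for the average S9 effect without TEP replicate 1, 3 for S9 within treatments without CYC replicate 1 or DMSO_S9 replicate 2, and 8 against DMSO_S9 without DMSO_S9 replicate 2. The cause was not tested. EOMES was not called in the average S9 effect taken as the mean of 7 contrasts (-0.69, adjusted p 0.0560), and GSC was (0.73, adjusted p 0.0303). Over log2 fold changes with other settings, 218 kept their call or lack of one, 11 lost and 3 gained one. The median log2 fold change of all genes in DMSO against D0 was 0.01 with RLE size factors and 0.04 with TMM.

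Replicate numbers did not meet the rule for pairing, a correlation over 0.1 in every pair of groups: over 276 pairs of groups the correlation of same-numbered deviations was -0.43 to 0.51 (median -0.01), and 75 were over 0.1. Within sets, 29 of 36 pairs of SPA groups and 9 of 15 pairs of compound groups with S9 were over 0.1. With DMSO added to the SPA groups it was 37 of 45 pairs (median 0.27), and in the 6 NEO and OPE groups 7 of 15 (median -0.01). Whether these sets were cultured or sequenced apart is not given, and its part in the differences between sets was not tested. GSC was higher in replicate 1 in 6 of 6 compound groups with S9, and in replicate 2 in DMSO and 8 of 9 SPA groups. A block within sets was not run. The replicate block that was run is 1 term shared by all groups, which cannot take up shifts that run opposite ways in different sets. With it the counts of calls were 5, 100, 4, 1, 4, 3, 6 and 13 in the order above, the same as without it. The first 2 include FOXA2. Without FOXA2 the second was 78 with and without the block, with 59 higher and 19 lower in place of 60 and 18.

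Depth limits SOX17, FOXA2, EOMES, TBXT and MESP1 most, whose day 8 counts stayed at or under 17. MIXL1 had decimal counts in 48 of 48 libraries. Doses, culture batches and library strand are not given in the labels, and each group has 2 libraries.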
